A study of Homo sapiens with 9 samples.

Results

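Glycolysis and hypoxia response genes were followed in RIVA cells, an established human lymphoma line of the ABC-DLBCL type, an aggressive tumour of mature B cells. The group was a list of 34 genes matched by symbol in the count table, and all 34 were found among its 60656 genes. They comprised 4 glucose and lactate transporters, 6 genes for the hexose phosphate steps, 2 bifunctional regulators of phosphofructokinase, 9 genes of lower glycolysis, 4 lactate dehydrogenase and pyruvate dehydrogenase kinase genes, HIF1A with 2 of its oxygen sensors, and 6 target genes of hypoxia-inducible factor (HIF) outside glycolysis. Of these, 33 had enough reads to be tested in each comparison, and SLC2A3 did not.

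The 9 RNA-seq libraries fell into 3 groups of 3 replicates. All 9 cultures carried a puromycin-selected tet-on lentiviral vector and received doxycycline at 200 ng/mL for 24 h, so the control shared the drug and the vector. The control carried the empty vector and is labelled BCL10 wild type, the second group expressed BCL10 S136X, a truncation, and the third BCL10 R58Q, a missense mutant. The mutants were expressed in cells of the same line beside its own BCL10 gene, and no group expressed added wild-type BCL10, so the mutation and the higher BCL10 dose cannot be told apart.

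Glycolysis splits glucose into pyruvate through a chain of cytosolic enzymes and yields ATP without oxygen, and many proliferating B cells send part of that pyruvate on to lactate, which leaves the cell through monocarboxylate transporters. Where oxygen is low, prolyl hydroxylases stop marking the HIF alpha subunits for destruction, and HIF binds a short core sequence near target genes that include most glycolytic enzymes, glucose transporters and the kinases that hold pyruvate out of the mitochondrion. Several glycolytic steps can be carried out by paralogous enzymes, and the balance between paralogues differs between tissues.

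The libraries held 28047713 to 33122267 counts. BCL10 itself had 885 to 1268 counts in the vector libraries and 9838 to 14293 in the mutant libraries, in the direction the labels give. All 6 B-cell markers were above 1 CPM (counts scaled by library size with TMM factors), with a summed level of 2680 to 3060 CPM in vector, 2500 to 3060 in S136X and 2340 to 2820 in R58Q. Summed T and NK cell markers stayed at or below 6.71 CPM, myeloid markers at or below 0.558 CPM and erythroid markers at or below 0.031 CPM in all libraries. Of the 3 epithelial or fibroblast markers EPCAM was at 32.9 to 53.6 CPM across the 9 libraries, and COL1A1 was at 3.06 to 5.15 CPM in vector, 9.6 to 16.2 in S136X and 10.7 to 17.2 in R58Q. The 3 plasma cell markers summed to 32.3 to 36.7 CPM in vector, 19.8 to 26.6 in S136X and 23.3 to 30.6 in R58Q. The part of either in the results that follow was not tested. The names of the count columns carry 1 date for vector and S136X and a later one for R58Q, so date and R58Q cannot be told apart. In bulk RNA, fewer cells with a transcript and less transcript per cell cannot be told apart either.

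The promoter sequences below carry, or lack, the letters that HIF recognises, and are shown for HK2, ENO1 and PKM, which rose in both mutants, and for LDHA and ANKRD37, whose levels moved with the replicate number. Each line gives the 250 bases before the first start that RefSeq lists for the gene on GRCh38.p14, written 5′ to 3′ on the gene's strand, with every match to the HIF core (ACGTG or GCGTG, searched on both strands, so also as CACGT or CACGC) in capitals. HK2 lies on the plus strand at chr2:74833877-74834126, ENO1 on the minus strand at chr1:8878687-8878936, PKM on the minus strand at chr15:72231191-72231440, LDHA on the plus strand at chr11:18394313-18394562 and ANKRD37 on the plus strand at chr4:185396591-185396840.
HK2: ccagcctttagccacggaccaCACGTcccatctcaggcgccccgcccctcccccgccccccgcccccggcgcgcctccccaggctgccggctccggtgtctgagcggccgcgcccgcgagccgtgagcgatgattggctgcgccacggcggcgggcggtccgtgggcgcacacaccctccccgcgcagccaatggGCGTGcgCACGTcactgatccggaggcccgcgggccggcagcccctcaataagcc
ENO1: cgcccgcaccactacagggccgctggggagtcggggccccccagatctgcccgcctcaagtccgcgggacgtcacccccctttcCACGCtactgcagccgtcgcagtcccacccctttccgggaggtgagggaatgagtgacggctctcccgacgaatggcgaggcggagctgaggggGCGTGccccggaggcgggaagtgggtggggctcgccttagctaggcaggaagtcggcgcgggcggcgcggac
PKM: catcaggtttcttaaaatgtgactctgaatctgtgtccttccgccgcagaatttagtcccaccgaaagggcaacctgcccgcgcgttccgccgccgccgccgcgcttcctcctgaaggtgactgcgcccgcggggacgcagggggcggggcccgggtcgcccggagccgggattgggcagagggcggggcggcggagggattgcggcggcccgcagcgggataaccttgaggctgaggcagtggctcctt
LDHA: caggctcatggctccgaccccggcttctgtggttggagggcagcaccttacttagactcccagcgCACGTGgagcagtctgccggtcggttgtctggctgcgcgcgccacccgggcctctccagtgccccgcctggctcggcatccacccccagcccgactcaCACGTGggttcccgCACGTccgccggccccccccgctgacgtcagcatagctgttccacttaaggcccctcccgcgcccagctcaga
ANKRD37: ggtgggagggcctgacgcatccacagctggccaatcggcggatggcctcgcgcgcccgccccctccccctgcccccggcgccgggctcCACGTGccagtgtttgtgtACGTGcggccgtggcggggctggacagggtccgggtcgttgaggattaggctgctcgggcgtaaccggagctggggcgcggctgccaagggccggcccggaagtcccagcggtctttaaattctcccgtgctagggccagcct

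The HK2 window held 3 matches, the ENO1 window 2, the LDHA window 5, the ANKRD37 window 3 and the PKM window 0. An E-box, CACGTG, contains the core on both strands and so counts as 2 core matches, and the LDHA window held 2 such E-boxes and the ANKRD37 window 1. These counts depend on the start shown. The window of another HK2 start, chr2:74834920-74835169, held 6 core matches and 2 E-boxes. That of another LDHA start, chr11:18396101-18396350, held 1 core match and 0 E-boxes. RefSeq promoter entries matched 30 of the 34 genes, and SLC2A3, SLC16A1, BNIP3L and VEGFA were the others. At least 1 listed start carried a core match in 25 of the 30 genes, against 47.4% of all 27305 genes in the table. Counted by start over the same 250 bases, 34 of 59 windows of these genes (57.6%) held the core, against 43.2% of all 35116 windows. The E-box was in 13.6% of their windows against 6.34% of all. A match is a run of letters, and binding was not measured here.

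Levels differed widely between the genes. Per kilobase of exon, GAPDH, which oxidises glyceraldehyde phosphate, was highest in the vector cells at 945 ± 71.9 CPM per kb (SD, n = 3). ENO1 followed at 236 ± 21.1, PKM at 211 ± 6.34, TPI1 at 158 ± 19.6 and LDHA at 141 ± 13.4 CPM per kb, and among these the ranges of ENO1 (224 to 261) and PKM (206 to 218) did not overlap while those of TPI1 (145 to 181) and LDHA (128 to 155) did. This order depends on the merged exon length used. In CPM not divided by length, PKM (1808.2) was above ENO1 (1246.2) and LDHA (873.4) above TPI1 (427.4) in vector. The lowest levels per kb belonged to SLC2A3, PFKFB4 at 0.675 ± 0.14, SLC16A3 at 0.8 ± 0.117 and VEGFA at 0.903 ± 0.137 CPM per kb. Not divided by length, VEGFA (13 CPM) was above LDHB (4.56), ALDOC (4.91) and ANKRD37 (5.3) in vector. SLC2A3, a high-affinity glucose transporter, was at 0 in 6 of the 9 libraries and at or below 0.0594 CPM in the others. The summed counts of all 34 genes made up 0.909% to 1.01% of each vector library, 0.996% to 1.06% of each S136X library and 0.975% to 1.07% of each R58Q library.

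The first question was whether either mutant changed the expression of these genes relative to vector. With S136X, 5 of the 33 genes tested rose (SLC16A1, HK2, PFKM, ENO1 and PKM) and 1 fell (MXI1) by edgeR's quasi-likelihood test at an adjusted p under 0.05. Of all 15530 genes tested in that comparison 6.03% rose and 4.1% fell. With R58Q, 6 of 33 rose (SLC2A1, SLC16A1, HK2, ALDOA, ENO1 and PKM) and 1 fell (MXI1), against 12.3% and 8.76% of the 15435 genes tested. The median log2 fold change of the 33 genes was 0.134 with S136X and 0.12 with R58Q, against -0.02 and -0.028 for all genes tested. The 33 genes are protein-coding, and for all protein-coding genes tested the medians were 0 and 0.012. Of those, 902 of 12123 rose and 529 fell with S136X, and 1792 of 12146 rose and 1042 fell with R58Q. Leaving out vector replicate 1 raised the medians of the 33 genes to 0.215 and 0.208. Leaving out replicate 1 of the mutant lowered them to 0.073 with S136X and 0.062 with R58Q, and the R58Q median was 0.076 when vector replicate 3 was dropped. Both comparisons use the same vector libraries, so they are not independent of each other.

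Requiring a change of at least 1.5-fold as well left 1 gene higher with S136X, SLC16A1 (2.05% of all genes), and 2 with R58Q, SLC16A1 and ALDOA (4.09% of all genes), and 0 lower in either (1.82% and 3.54% of all genes). Groups that did not overlap at all were found for 9 genes higher and 3 lower with S136X (16% and 15.4% of all genes) and for 12 higher and 2 lower with R58Q (21.1% and 19.2% of all genes). When the replicate number was entered as a block, 13 genes rose and 4 fell with S136X (12.9% and 11.8% of all genes), and 14 rose and 3 fell with R58Q (18.2% and 17% of all genes). Leaving out 1 library at a time gave 2 to 6 genes higher with S136X and 3 to 7 with R58Q. Fewest, 2 with S136X, were left without vector replicate 2, vector replicate 3 or S136X replicate 3, and fewest with R58Q, 3, without vector replicate 2, vector replicate 3 or R58Q replicate 1. S136X replicate 1 also brought the first count to 3 when left out. Under upper-quartile scaling the R58Q calls were 4 higher and 2 lower, and with total counts only they were 5 and 2. These scalings turned the calls over all genes from 59.5% higher to 47.4% and 42.6% with S136X, and from 58.3% higher to 40.3% and 43.1% with R58Q.

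**Figure D1:**
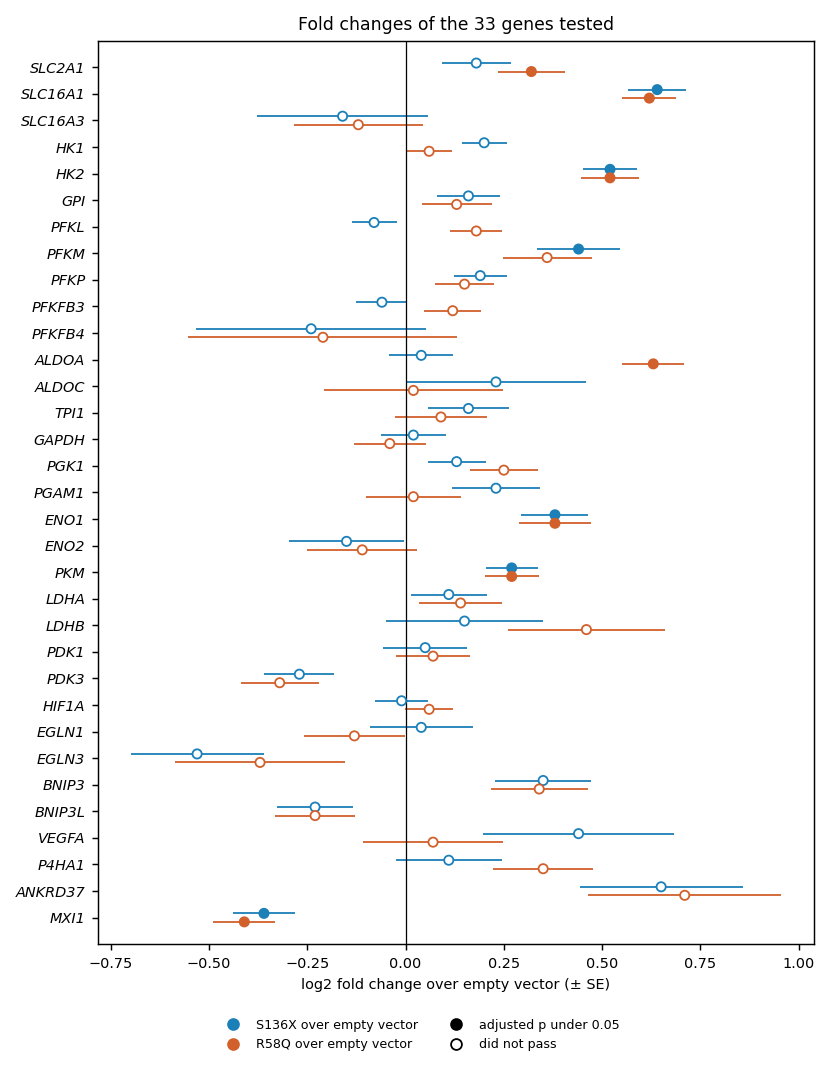
Fold changes of the 33 genes tested. The horizontal axis gives the log2 fold change over empty vector with its standard error, for S136X (blue) and R58Q (orange), and filled points mark an adjusted p under 0.05. SLC16A1 and HK2 lie to the right at 0.52 to 0.64 in both mutants, ALDOA and SLC2A1 are filled for R58Q alone and PFKM for S136X alone, and MXI1 is the filled gene to the left.

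Among the transporters the clearest change was in SLC16A1, which encodes the monocarboxylate transporter MCT1 and moves lactate and pyruvate across the plasma membrane. The gene lies at chr1:112911847-112957013 (GRCh38, as the count table lists it). Its level was 99.6, 94.7 and 88.1 CPM in the vector libraries, 158.6, 138.9 and 141 in S136X and 153.9, 139.5 and 141.2 in R58Q. Every mutant library lay above every vector library, and the ranges of the mutants overlapped. SLC16A1 rose 1.55-fold with S136X (log2 0.64, SE 0.0741, edgeR adjusted p = 0.00184) and 1.54-fold with R58Q (log2 0.62, SE 0.0683, adjusted p = 0.000939). The call held in each of the 6 fits that left out 1 library in either comparison.

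SLC2A1 encodes GLUT1, a main glucose importer of many proliferating cells, and lies at chr1:42925353-42958893. It was at 57.4, 47.8 and 51.8 CPM in vector, 61.1, 62.8 and 54.3 in S136X and 68.9, 67.1 and 59.8 in R58Q. The R58Q libraries were all above the vector libraries, and the S136X range overlapped both. SLC2A1 rose 1.24-fold with R58Q (log2 0.32, SE 0.0854, edgeR adjusted p = 0.0335), and with S136X the log2 difference was 0.18 (95% interval -0.01 to 0.38, adjusted p = 0.219). The R58Q call was lost under upper-quartile scaling (adjusted p = 0.0616), with total counts only (0.0596) and without vector replicate 2 (0.124), vector replicate 3 (0.0957), R58Q replicate 1 (0.0718) or R58Q replicate 2 (0.083). The R58Q and S136X levels themselves differed by log2 0.13 (interval -0.05 to 0.3), which did not pass.

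SLC16A3, the lactate exporter MCT4, was low at 5.21 to 8.82 CPM across all libraries. Its log2 difference was -0.16 with S136X and -0.12 with R58Q, with adjusted p of 0.693 and 0.639 by edgeR. SLC16A1 made up 95.7% ± 0.378 of the summed SLC16A1 and SLC16A3 level per kb in vector, 97.5% ± 0.575 in S136X and 97.4% ± 0.294 in R58Q, as mean and SD of 3 libraries. The vector libraries ran from 95.3% to 95.9%, those of S136X from 96.8% to 97.8% and those of R58Q from 97.1% to 97.7%, so vector did not overlap the mutants.

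**Figure D2:**
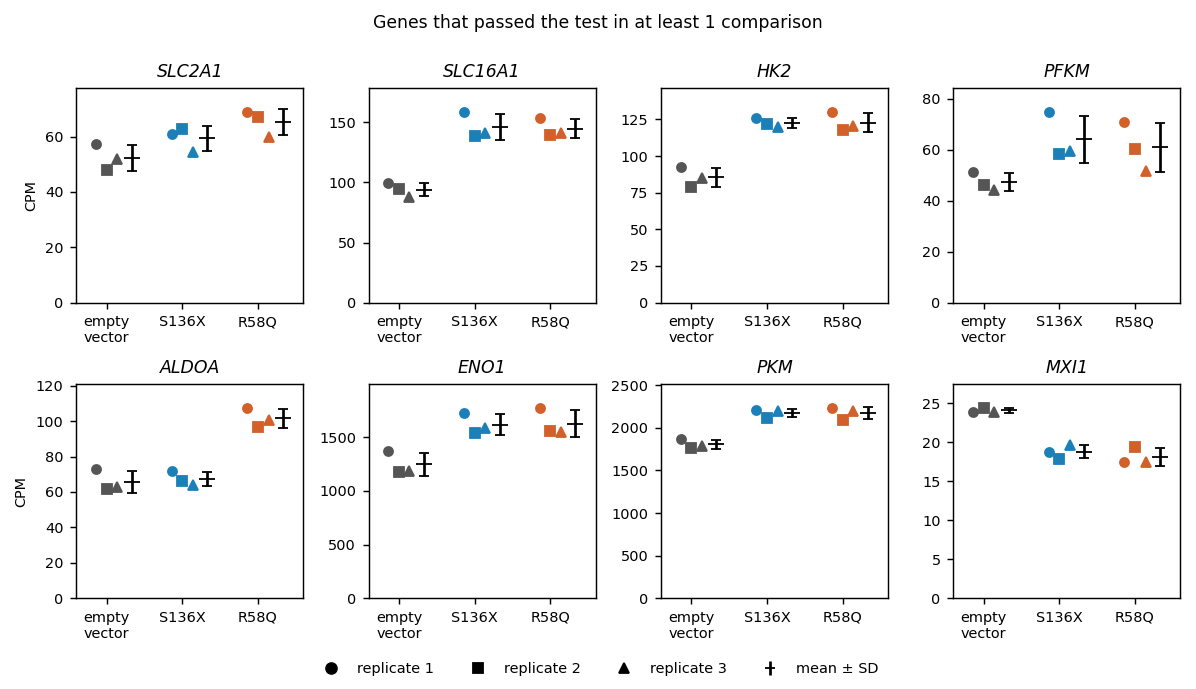
Levels of the 8 genes that passed the test in at least 1 comparison. Each panel gives CPM on a linear axis from 0, a marker for each library by replicate number, and the mean with its SD at the right of each group. The 6 mutant libraries of SLC16A1, HK2, PFKM, ENO1 and PKM all lie above the vector libraries, those of MXI1 all lie below, and ALDOA is higher in R58Q alone.

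The first committed step of glucose use is its phosphorylation by hexokinase. HK2, the inducible hexokinase that can bind mitochondria, lies at chr2:74834127-74893359. It was at 92.2, 79.2 and 85 CPM in vector, 126, 121.7 and 119.8 in S136X and 130, 117.9 and 120.4 in R58Q. The mutant libraries were all higher than the vector libraries and overlapped each other. HK2 rose 1.43-fold in both comparisons (log2 0.52 in each, SE 0.0682 with S136X and 0.0725 with R58Q, edgeR adjusted p = 0.00329 and 0.00263), and no library decided these calls when left out.

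HK1, the hexokinase of most tissues, was at 88.2, 81.7 and 86.6 CPM in vector, 100.9, 97.5 and 96.8 in S136X and 92.2, 87.5 and 88.1 in R58Q. Its S136X libraries lay above both other groups, and the other two groups overlapped. The log2 difference from vector was 0.2 with S136X (edgeR adjusted p = 0.0583, 0.0145 with the replicate block, 0.0334 in 1 fit of all 9 libraries and 0.0451 by DESeq2) and 0.06 with R58Q (adjusted p = 0.491). Between the mutants HK1 was lower in R58Q by a log2 difference of -0.15 that passed with the block alone (adjusted p = 0.0245, against 0.326 without it).

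HK2 took a larger share of the hexokinase transcripts in both mutants. Per kb it made up 50.9% ± 1.02 of HK1 plus HK2 in vector, 56.4% ± 0.116 in S136X and 58.8% ± 0.564 in R58Q, again as mean and SD of 3 libraries. The libraries ran from 50.2% to 52.1% in vector, 56.2% to 56.5% in S136X and 58.3% to 59.4% in R58Q, so the 3 groups did not overlap. A share within a library does not depend on how libraries are scaled against each other.

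Phosphofructokinase, which commits fructose phosphate to glycolysis, is built from 3 isoforms, and its genes gave different pictures. PFKM, the muscle-type isoform at chr12:48105139-48146404, was at 51.3, 46.3 and 44.2 CPM in vector, 74.8, 58.3 and 59.5 in S136X and 70.8, 60.2 and 51.8 in R58Q. All mutant libraries were above the vector libraries, although R58Q replicate 3 exceeded vector replicate 1 by little. PFKM rose 1.36-fold with S136X (log2 0.44, SE 0.106, edgeR adjusted p = 0.0332). With R58Q its log2 difference was 0.36 (SE 0.113), which missed the threshold without the block (adjusted p = 0.0524) and passed with it (0.00231). The R58Q difference also passed by DESeq2 (0.0174), with no filter on low counts (0.00453), with at least 10 counts in every library (0.0429) and without vector replicate 1 (0.0446) or R58Q replicate 3 (0.0269). The S136X call was lost without vector replicate 2 (adjusted p = 0.125), vector replicate 3 (0.0906) or S136X replicate 3 (0.0546).

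PFKL, the liver-type isoform, was at 238, 222.6 and 241.3 CPM in vector, 220.6, 220.9 and 223.1 in S136X and 283.8, 261.1 and 252.7 in R58Q. Only R58Q stood clear of the other groups in all 3 libraries. Over vector, the log2 difference of PFKL with R58Q was 0.18, with an edgeR adjusted p of 0.0845. That difference passed with the replicate block (0.0294) and in 1 fit of all 9 libraries (0.0476). Between R58Q and S136X the log2 difference of PFKL was 0.25 (95% interval 0.12 to 0.39). Its edgeR adjusted p was 0.127, against 0.000497 with the replicate block and 0.0345 by DESeq2. PFKP, the platelet-type isoform, was at 151.2 to 169.5 CPM in vector, 171.5 to 189.8 in S136X and 167 to 192.8 in R58Q, and passed against vector with the block alone (adjusted p = 0.0149 with S136X and 0.0356 with R58Q).

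In shares of the 3 isoforms per kb, PFKL was 40.1% ± 1.41 in the vector libraries, 35.1% ± 1.56 with S136X and 40% ± 0.795 with R58Q (SD, n = 3). PFKP was 50% ± 0.942, 52.6% ± 0.497 and 48.9% ± 0.892, and PFKM 9.88% ± 0.506, 12.3% ± 1.24 and 11.1% ± 0.949 in the same order. The S136X libraries held less PFKL (33.3% to 36.3%) than any library of vector (38.8% to 41.6%) or R58Q (39.1% to 40.6%).

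**Figure D3:**
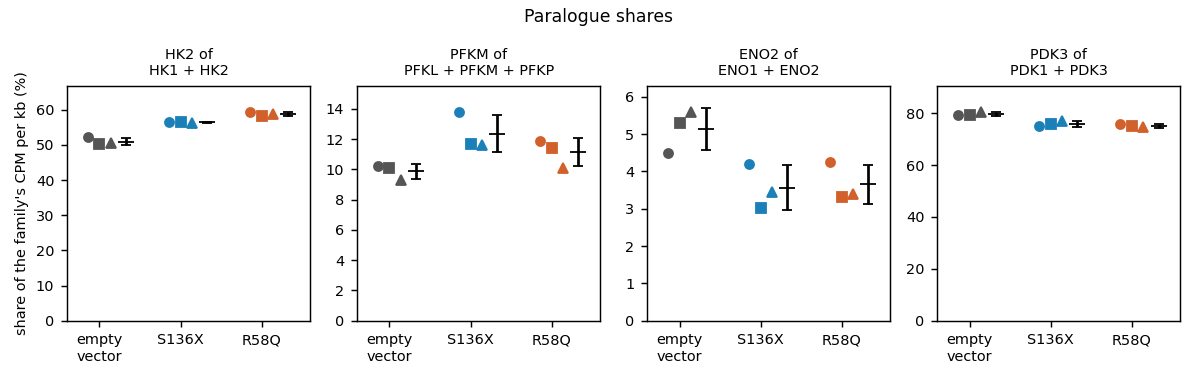
Shares of paralogues within their families. Each panel gives, on an axis from 0, the share of the named gene in the summed CPM per kb of its family in each library (circle, square and triangle for replicates 1, 2 and 3) with the mean and SD at the right of each group. The HK2 share goes from 50.9% in vector to 56.4% in S136X and 58.8% in R58Q, while the ENO2 and PDK3 shares are lower in both mutants.

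GPI, which interconverts glucose and fructose phosphate, was at 450.1 to 516.2 CPM in vector, 497.9 to 567.4 in S136X and 473.5 to 570.1 in R58Q, with overlapping groups. Its log2 difference with S136X was 0.16, which passed with the block alone (edgeR adjusted p = 0.03, against 0.253). The bifunctional enzymes encoded by PFKFB3 and PFKFB4 set the level of fructose 2,6-bisphosphate, the main activator of phosphofructokinase. PFKFB3 was at 57.7 to 63.6 CPM in vector, 56.6 to 60.9 in S136X and 60.9 to 70.4 in R58Q, and was higher in R58Q than in S136X with the block alone (log2 0.17, adjusted p = 0.0382, against 0.427). PFKFB4 was at 3.59 to 5.1 CPM in vector, 2.49 to 5.23 in S136X and 2.05 to 5.66 in R58Q, a spread within groups that exceeded the differences between them.

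In lower glycolysis, ENO1 and PKM rose in both mutants. ENO1, the enolase of most cells, lies at chr1:8861000-8879190 and was at 1374.9, 1180.1 and 1183.7 CPM in vector, 1727.1, 1536.3 and 1585.6 in S136X and 1774.1, 1562.1 and 1544.8 in R58Q. The lowest mutant library was above the highest vector library, and replicate 1 was the highest library of every group. ENO1 rose 1.3-fold in both comparisons (log2 0.38 in each, SE 0.0852 and 0.0908, edgeR adjusted p = 0.0271 with S136X and 0.0213 with R58Q). The S136X call was lost without vector replicate 2 (adjusted p = 0.124), vector replicate 3 (0.0769), S136X replicate 1 (0.0578) or S136X replicate 3 (0.0684), and the R58Q call without vector replicate 2 (0.0987), vector replicate 3 (0.0779) or R58Q replicate 1 (0.0576).

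ENO2, the neuron-type enolase that HIF also drives in other cells, was at 52.6, 53.5 and 57 CPM in vector, 61.6, 38.8 and 46.2 in S136X and 63.9, 43.3 and 44.3 in R58Q. In each mutant, replicate 1 lay above the vector range and the other two libraries below it. The log2 difference did not pass with S136X (-0.15, edgeR adjusted p = 0.544) or R58Q (-0.11, adjusted p = 0.615). Without replicate 1 of the mutant it did, at -0.36 with S136X (adjusted p = 0.0416) and -0.3 with R58Q (adjusted p = 0.0248). As a share of both enolases per kb, ENO2 was 5.13% ± 0.568 with the empty vector, 3.56% ± 0.605 with S136X and 3.66% ± 0.518 with R58Q (SD, n = 3), and the vector range (4.5% to 5.6%) lay above those of S136X (3.02% to 4.21%) and R58Q (3.31% to 4.25%).

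PKM encodes pyruvate kinase, the last step to pyruvate, and lies at chr15:72199029-72231822. It was at 1870.2, 1769 and 1785.5 CPM in vector, 2203.7, 2114.8 and 2202.4 in S136X and 2235, 2094 and 2199.6 in R58Q. The groups of mutant and vector libraries did not overlap. PKM rose 1.2-fold in each mutant (log2 0.27 in both, SE 0.0659 and 0.0686, edgeR adjusted p = 0.0372 with S136X and 0.029 with R58Q). Gene-level counts do not separate its M1 and M2 splice forms. The S136X call was lost under upper-quartile scaling (adjusted p = 0.0604), with total counts only (0.0552) and without vector replicate 2 (0.153), vector replicate 3 (0.0963), S136X replicate 1 (0.0805), S136X replicate 2 (0.0576) or S136X replicate 3 (0.103). The R58Q call was lost under upper-quartile scaling (0.0637) and without vector replicate 2 (0.124), vector replicate 3 (0.0915), R58Q replicate 1 (0.0886) or R58Q replicate 3 (0.0889).

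ALDOA, the aldolase that splits fructose bisphosphate, lies at chr16:30064164-30070457 and was the gene that set the mutants apart. It was at 72.8, 61.5 and 62.9 CPM in vector, 71.6, 66.3 and 64.2 in S136X and 107.5, 96.6 and 100.5 in R58Q. The R58Q libraries were above all 6 others, and vector and S136X overlapped. ALDOA rose 1.54-fold with R58Q over vector (log2 0.63, SE 0.0794, edgeR adjusted p = 0.00179), and with S136X the log2 difference was 0.04 (95% interval -0.15 to 0.22, adjusted p = 0.812). Compared directly, R58Q was 1.5-fold above S136X (log2 0.58, SE 0.0645, adjusted p = 0.0138, and 3.09e-08 with the block). The direct call was lost without S136X replicate 2 (adjusted p = 0.0726), S136X replicate 3 (0.126) or R58Q replicate 3 (0.0847). In GENCODE release 29, 42.3% of ALDOA exon bases lie in exons of AC093512.2 on the same strand, and 59.1% of the 31-base words of ALDOA occur in other genes, so its counts depend on how shared reads were assigned, which is not given in the sources used here.

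ALDOC, a brain-type aldolase, was at 4.04 to 7.72 CPM across the 9 libraries with overlapping groups. TPI1, which interconverts the triose phosphates, was at 392.8 to 488.4 CPM in vector, 450 to 535.2 in S136X and 398.4 to 521.5 in R58Q, and passed for S136X with the block alone (log2 0.17, edgeR adjusted p = 0.0233). GAPDH, often used as a reference gene, was at 2680.5 to 3063 CPM in vector, 2674.2 to 2971.2 in S136X and 2524.8 to 2960.5 in R58Q, with log2 differences of 0.02 (95% interval -0.17 to 0.2) and -0.04 (-0.24 to 0.17).

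PGK1, which makes the first ATP of the pathway, was at 252.8, 245.7 and 221.6 CPM in vector, 280.4, 261.6 and 248.2 in S136X and 313.6, 287.1 and 257.4 in R58Q. The R58Q range lay just above that of vector, and S136X overlapped both. Its log2 difference with R58Q was 0.25, with an edgeR adjusted p of 0.0717, which passed with the block (0.00452), by DESeq2 (0.0353), with no filter on low counts (0.0227) and without R58Q replicate 3 (0.0496). PGAM1, the phosphoglycerate mutase, was at 53.4 to 71.8 CPM in vector, 65.4 to 74.9 in S136X and 57.4 to 68.6 in R58Q. With the block PGAM1 was higher in S136X than in vector (log2 0.23, adjusted p = 0.0259) and lower in R58Q than in S136X (log2 -0.21, adjusted p = 0.00709), and without it neither passed (0.237 and 0.407) unless vector replicate 1 was left out (log2 0.38 with S136X, adjusted p = 0.0269). Other genes hold 49.2% of its 31-base words.

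Of the 4 genes that direct pyruvate, 0 were called against vector by the edgeR test without the block, and PDK3 and LDHB depended on the setting. LDHA, the lactate dehydrogenase subunit that HIF induces, was at 959.7, 866.5 and 793.8 CPM in vector, 1055.2, 904.5 and 871 in S136X and 1094.6, 922.6 and 872.4 in R58Q. The groups overlapped, and within each of them replicate 1 was the highest. The log2 differences were 0.11 (95% interval -0.11 to 0.33) and 0.14 (-0.1 to 0.38). LDHB, the other subunit, was at 3.76 to 7.65 CPM, or 1.08% ± 0.156 of both subunits per kb with the empty vector, 1.11% ± 0.184 with S136X and 1.33% ± 0.131 with R58Q (SD, n = 3). LDHB passed with R58Q under the block alone (log2 0.45, edgeR adjusted p = 0.0343), and 61.6% of its 31-base words occur in other genes. Of the LDHB exon bases 33.4% overlap other genes on the same strand, AC010197.2 most.

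PDK1 and PDK3 encode kinases that switch off pyruvate dehydrogenase. PDK1, a classical HIF target, was at 20.3 to 23.9 CPM in vector, 20.6 to 25.3 in S136X and 21.1 to 24.2 in R58Q, with log2 differences of 0.05 (95% interval -0.19 to 0.29) and 0.07 (-0.15 to 0.28). PDK3 was at 26, 30.5 and 28.9 CPM in vector, 25.1, 22.4 and 23.1 in S136X and 25.2, 22.9 and 20.5 in R58Q. All mutant libraries were below all vector libraries. Its log2 difference was -0.27 with S136X (edgeR adjusted p = 0.0875, and 0.0409 with the block) and -0.32 with R58Q (adjusted p = 0.053, and 0.0236 with the block). The R58Q difference also passed by DESeq2 (0.0367), with no filter on low counts (0.0468), in 1 fit of all 9 libraries (0.038), under upper-quartile scaling (0.0291), with total counts only (0.0274) and without vector replicate 1 (0.044) or R58Q replicate 1 (0.032). As a share of PDK1 plus PDK3 per kb, PDK3 was 79.7% ± 0.645 with the empty vector, 75.9% ± 1.09 with S136X and 75.1% ± 0.629 with R58Q (SD, n = 3), and the vector range (79.3% to 80.5%) lay above those of S136X (74.9% to 77.1%) and R58Q (74.5% to 75.7%).

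HIF1A and the oxygen sensors were not called by the edgeR test without the block, and EGLN3 depended on the setting. HIF1A, whose protein is controlled mainly by its breakdown, was at 133.7, 149.2 and 142.5 CPM in vector, 139.5, 149.2 and 132.5 in S136X and 144.2, 147.3 and 152.3 in R58Q. The log2 differences from vector were -0.01 (95% interval -0.17 to 0.14) and 0.06 (-0.08 to 0.2). EGLN1 and EGLN3 encode the prolyl hydroxylases PHD2 and PHD3. EGLN1 was at 5.98 to 7.63 CPM in all libraries with overlapping groups. EGLN3, itself a HIF target, was at 8.81, 7.43 and 6.65 CPM in vector, 6.05, 5.46 and 4.32 in S136X and 6.64, 7.12 and 4.07 in R58Q. The S136X libraries were all below vector, and R58Q overlapped vector. The log2 difference of -0.53 with S136X had an edgeR adjusted p of 0.0828, and passed with the block (0.00883), by DESeq2 (0.0453) and with no filter on low counts (0.0407).

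Of the 6 HIF target genes outside glycolysis, the edgeR test without the block called MXI1, which fell in both mutants. ANKRD37, BNIP3, BNIP3L and P4HA1 passed under some other settings, and VEGFA with the block alone. MXI1 encodes a MAX partner that opposes MYC at E-boxes and lies at chr10:110207605-110287365. It was at 23.9, 24.4 and 23.9 CPM in vector, 18.8, 17.9 and 19.6 in S136X and 17.4, 19.4 and 17.5 in R58Q. All 6 mutant libraries were below the vector libraries, and the mutants overlapped. MXI1 fell by 0.36 on the log2 scale with S136X (SE 0.0777, edgeR adjusted p = 0.0229) and by 0.41 with R58Q (SE 0.0783, adjusted p = 0.00911). The R58Q call held without any 1 library, and the S136X call was lost without vector replicate 1 (adjusted p = 0.0518), vector replicate 2 (0.109), vector replicate 3 (0.0826), S136X replicate 2 (0.0747) or S136X replicate 3 (0.0548).

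ANKRD37, an ankyrin-repeat gene known as a HIF target, was at 6.47, 5.13 and 4.3 CPM in vector, 10.6, 7.38 and 6.98 in S136X and 12, 6.68 and 7.43 in R58Q. Each mutant library exceeded each vector library, and in the mutants replicate 1 stood well above the other libraries. Its log2 differences, 0.65 (SE 0.207) with S136X and 0.71 (SE 0.245) with R58Q, were among the largest of the group but missed the threshold (edgeR adjusted p = 0.084 and 0.0724), and passed with the block (0.0032 and 0.00372), by DESeq2 (0.0217 and 0.0201) and with no filter on low counts (0.0132 and 0.00639). Exons on the opposite strand cover 35.2% of the ANKRD37 exon bases, and the strand setting of the counts is not given in the sources used here.

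BNIP3 and BNIP3L encode related proteins that tag mitochondria for removal, and their levels differed from vector in opposite directions. BNIP3 was at 26.6, 25.6 and 22.4 CPM in vector, 37.4, 28.1 and 29.4 in S136X and 37.4, 27.5 and 29.8 in R58Q, with no overlap between vector and mutants. BNIP3L was at 51.6, 59.3 and 55.3 CPM in vector, 44.3, 54 and 43.5 in S136X and 44.8, 54.5 and 42.4 in R58Q, where replicate 2 of each mutant reached into the vector range. Neither was called by the edgeR test without the block. BNIP3 passed with S136X and R58Q by DESeq2 (adjusted p = 0.0494 and 0.048) and with no filter on low counts (0.0363 and 0.0213), and BNIP3L with R58Q when R58Q replicate 2 was left out (log2 -0.34, adjusted p = 0.0302). With the block BNIP3 rose (log2 0.34 with S136X and 0.33 with R58Q, edgeR adjusted p = 0.0125 and 0.013) and BNIP3L fell (log2 -0.23 and -0.24, adjusted p = 0.0191 and 0.019).

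VEGFA, the angiogenic growth factor, was at 15.2, 12.5 and 11.4 CPM in vector, 25.6, 12.9 and 14.6 in S136X and 17.4, 11.1 and 12.8 in R58Q. S136X replicate 1 was the highest library, and the other S136X libraries overlapped both groups. With the block VEGFA was higher in S136X than in vector (log2 0.39, edgeR adjusted p = 0.0433) and lower in R58Q than in S136X (log2 -0.35, adjusted p = 0.00539), and without it neither passed (0.288 and 0.728). P4HA1, a collagen prolyl hydroxylase, was at 29.9, 25.6 and 24.3 CPM in vector, 34.9, 26.2 and 25.3 in S136X and 40.5, 30.5 and 31 in R58Q. Its R58Q libraries lay above vector, and with the block it was higher in R58Q than in vector (log2 0.35, adjusted p = 0.0036, against 0.0838 without it, 0.0463 by DESeq2 and 0.0168 with no filter) and than in S136X (log2 0.23, adjusted p = 0.00709, against 0.676).

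The second question was whether the mutants differed from each other. ALDOA was the single gene of 33 higher in R58Q than in S136X, and 0 were lower, by edgeR's quasi-likelihood test (0.349% and 0.184% of all 15195 genes tested), while the median log2 fold change was -0.006. Groups that did not overlap were found for 2 genes higher (ALDOA and PFKL) and 1 lower (HK1), against 9.45% and 7.57% of all genes. With the 1.5-fold rule added, 0 genes were higher (0.27% of all genes) and 0 lower (0.165%), since the ALDOA change falls just under 1.5-fold before rounding. With the replicate block 4 were higher (ALDOA, PFKL, PFKFB3 and P4HA1) and 3 lower (HK1, PGAM1 and VEGFA), against 7.84% and 6.71% of all genes. For the genes that rose in both mutants the interval of the difference between R58Q and S136X ran from log2 -0.18 to 0.14 for SLC16A1, -0.14 to 0.13 for HK2, -0.17 to 0.17 for ENO1 and -0.14 to 0.12 for PKM.

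Many of these genes also varied between replicate numbers within the groups. This comparison was added after the values had been seen. In every group replicate 1 stood above the other libraries for most of the 33 genes, with 27 genes above the group mean in vector replicate 1, 28 in S136X replicate 1 and 30 in R58Q replicate 1. Replicate 3 was above the group mean for 5, 4 and 2 genes. The median deviation from the group mean was 0.121, 0.098 and 0.138 on the log2 scale in the 3 replicate 1 libraries, while that of all genes lay between -0.006 and 0.008 in the 9 libraries. Markers moved with the replicate number as well. Replicate 1 was the lowest library of every group for CD22, CD79A and MS4A1 among the B-cell markers, for JCHAIN of the 3 plasma cell markers and for COL1A1 of the 3 epithelial or fibroblast markers, and the highest for 0 of the 24 markers listed. The summed B-cell markers were at 2340 to 2680 CPM in the replicate 1 libraries and 2540 to 3060 in the others, and the plasma cell markers at 19.8 to 34.8 and 21.8 to 36.7 CPM. T and NK, myeloid and erythroid markers had 0 such genes. The part of these markers in the replicate pattern was not tested.

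In a fit of all 9 libraries with group and replicate number, 20 of the 33 genes differed between replicate numbers at an edgeR adjusted p under 0.05, against 20.7% of 15860 genes. Replicate 1 was the highest library of its group in all 3 groups for 20 of 33 genes, against 15.9% of all genes, and the lowest in all 3 for 0, against 13%. Both held for 17 genes, against 8.25% of all genes. By role these were SLC16A1 and SLC16A3 of the transporters, GPI, PFKM and PFKP of the hexose phosphate steps, PFKFB4, 6 of the 9 genes of lower glycolysis (ALDOA, TPI1, GAPDH, PGK1, PGAM1 and ENO1), LDHA, and 4 of the 6 HIF targets (BNIP3, VEGFA, P4HA1 and ANKRD37).

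The lowest adjusted p for the replicate number were those of TPI1 (0.000744), LDHA (0.00106), P4HA1 (0.00114) and VEGFA (0.00204) by edgeR's test. On average over the groups, replicate 1 exceeded the mean of the other two by 1.22-fold for TPI1, 1.19-fold for LDHA, 1.29-fold for P4HA1 and 1.52-fold for VEGFA. PFKFB4 had the largest ratio, 1.85-fold, with 5.1 CPM in vector replicate 1, 5.23 in S136X replicate 1 and 5.66 in R58Q replicate 1 and 2.05 to 3.67 in the 6 other libraries. For ANKRD37 the ratio was 1.51-fold. BNIP3L differed in another way, with replicate 2 the highest of each group. Among the genes called between groups, HK2, PKM, SLC2A1 and MXI1 did not pass for the replicate number (adjusted p = 0.104, 0.383, 0.153 and 0.913), and neither did HIF1A (0.346). The replicate 1 libraries of the 3 groups bear 2 different dates in their column names, and whether the replicate number stands for a culture, a day or another shared step is not given in the sources used here.

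**Figure D4:**
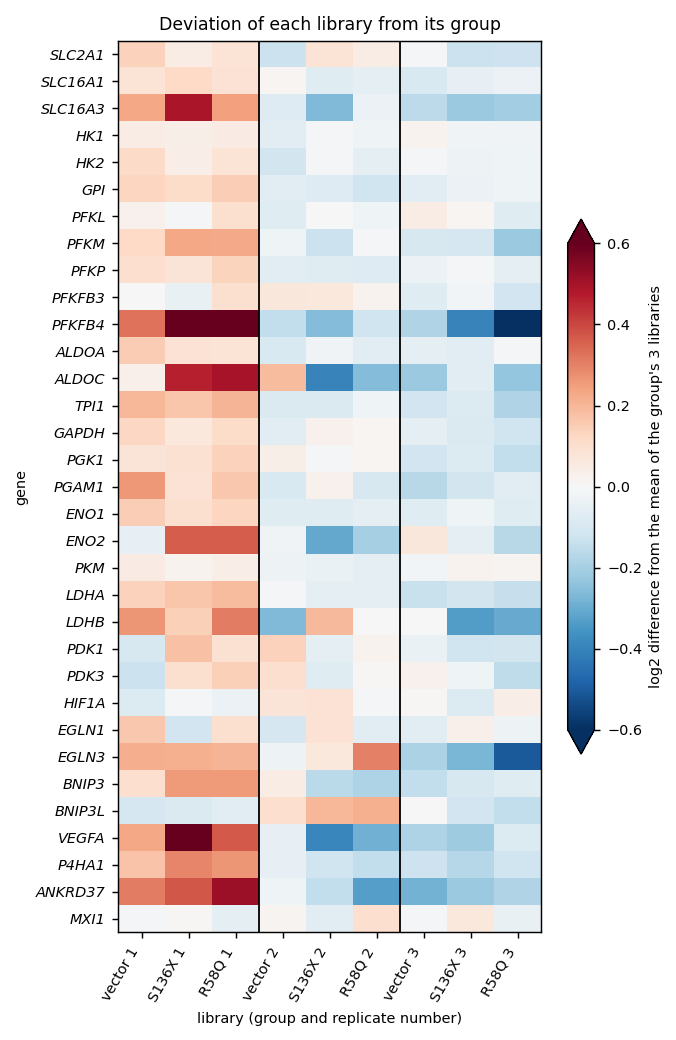
Deviation of each library from its group. Rows are the 33 genes tested, columns the 9 libraries ordered by replicate number, and colour the log2 difference from the mean of the group's 3 libraries (red above, blue below, saturating at ±0.6). The 3 replicate 1 columns are red for most genes, PFKFB4, VEGFA and ANKRD37 among the strongest.

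**Figure D5:**
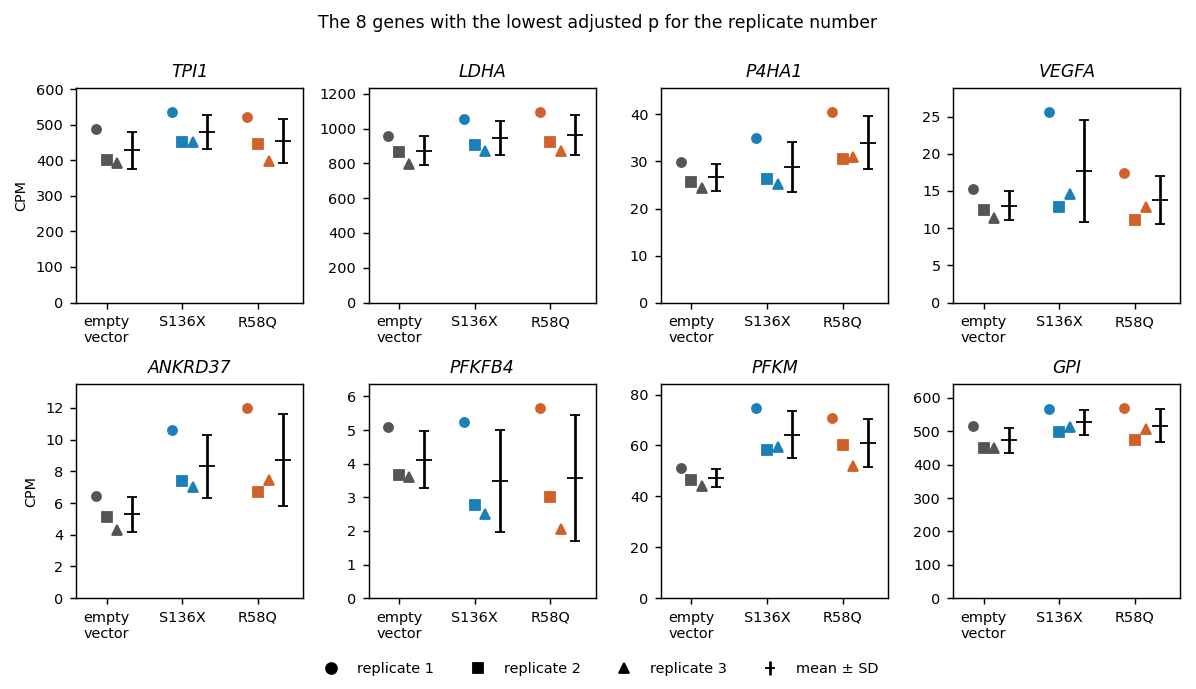
Levels of the 8 genes with the lowest adjusted p for the replicate number. Axes, markers and error bars are as in the plot of the genes that passed between groups. The circle, replicate 1, is the highest library of its group in every group shown.

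Related genes outside the 34 were drawn from 4 lists, whose counts are to be read against the shares of all genes tested, 6.03% higher and 4.1% lower with S136X and 12.3% and 8.76% with R58Q. Of 22 other glycolysis genes 14 were tested, and with S136X 0 rose and 1 fell while with R58Q 1 rose and 1 fell. SLC2A5, a fructose transporter, fell in both, from 111.2, 91.1 and 75.8 CPM in vector to 44.7, 54.6 and 37.7 in S136X and 60.8, 67.5 and 40 in R58Q (log2 -1.02 and -0.73, edgeR adjusted p = 0.00675 and 0.0335), and no mutant library reached the vector range. MIF rose with R58Q (log2 0.5, adjusted p = 0.02). Exons of other genes cover 61.9% of the MIF exon bases on the opposite strand and 32.2% on the same strand. Other genes hold 36.3% of its 31-base words.

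Of 13 genes of pyruvate entry to mitochondria 12 were tested, with 0 higher and 2 lower with S136X and 1 higher and 2 lower with R58Q. PDK2, another pyruvate dehydrogenase kinase, fell from 28.1 to 31.9 CPM in vector to 23.2 to 24.7 in S136X and 21.1 to 24.4 in R58Q (log2 -0.35 and -0.46, edgeR adjusted p = 0.0295 and 0.0104). PDP1, the phosphatase that opposes these kinases, fell as well, from 17.8 to 18 CPM to 11.3 to 13.1 and 12.1 to 13.2 (log2 -0.54 and -0.51, adjusted p = 0.00951 and 0.00511). PDHX, a structural subunit of the complex, rose with R58Q (log2 0.33, adjusted p = 0.0227). Exons on the opposite strand cover 38.6% of the PDK2 exon bases.

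All 8 pentose phosphate genes were tested, with 1 higher and 1 lower with S136X and 1 higher and 0 lower with R58Q. RPIA, the ribose phosphate isomerase, rose from 46.8 to 47.7 CPM in vector to 59.3 to 63.4 in S136X and 66.1 to 68.9 in R58Q (log2 0.38 and 0.51, edgeR adjusted p = 0.00648 and 0.000755), and TKTL1, a transketolase-like gene, fell with S136X (log2 -1.05, adjusted p = 0.0466). TKTL1 was low, at 1.93 to 3.36 CPM in vector and 0.947 to 1.57 in S136X. In R58Q it was at 0.869 to 1.79 CPM, also below the vector range, but was not called. Of 50 further HIF pathway and hypoxia response genes 36 were tested, with 2 higher and 3 lower with S136X and 6 higher and 3 lower with R58Q, and median log2 fold changes of -0.002 and -0.005. TFRC, the transferrin receptor and a shared target of HIF and iron-response control, rose from 199.2 to 209.3 CPM in vector to 307.3 to 349.7 in S136X and 308 to 368.5 in R58Q (log2 0.67 and 0.73, adjusted p = 0.000829 and 0.000661). The 3 that fell in both were CCNG2 (log2 -0.77 and -0.67), ADM (-0.48 and -0.6) and ZNF395 (-0.44 and -0.57), a cyclin-like gene, the peptide adrenomedullin and a zinc finger gene, and JMJD6 rose in both (0.38 and 0.47). Of the ZNF395 exon bases 34.9% overlap other genes on the same strand, FBXO16 most, and 42.1% of its 31-base words occur in other genes.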

How the data were processed

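The 9 RNA-seq libraries came from RIVA cells with the empty vector, with S136X or with R58Q. The authors deposited read counts per gene for each library beside normalized counts, which were not used. The submitters' processing notes name cutadapt, STAR, Picard and hg38, and no version is listed there. The counting program, its strand setting and the annotation are not given in the sources used here. Of the 60656 identifiers 96.3% were in GENCODE release 29, and for 99.9% of these the positions overlapped. For doxycycline the treatment protocol states 200 ng/mL, while the characteristics state the same figure per microlitre.

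edgeR 4.0.16 (R 4.3.3) was run on the counts of the 6 libraries of each comparison (filterByExpr, minimum count 10, minimum total 15; TMM factors; quasi-likelihood F test; Benjamini-Hochberg adjustment over all genes tested). The standard error of a log2 fold change was taken from its F statistic (the change over the square root of F), and 95% intervals use the t quantile at the test's degrees of freedom. A gene "rose" or "fell" at an adjusted p under 0.05. Levels are CPM with TMM factors over all 9 libraries, and lengths are the merged exons of each gene. Paralogue shares were described without a test. Named were all 34 genes and, of 4 wider lists, up to 4 called genes per list and comparison with the largest change. The genes and lists were chosen with earlier results of these data known. Alternatives were DESeq2 1.42.0, limma-voom 3.58.1, 2 other scalings, 2 other filters, 1 fit of all libraries, the replicate block and each library left out. The procedures were tested on simulated data.

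Replicates carry the numbers 1 to 3 in the labels of each group, and the study calls them biologic replicates. Deviations from the group mean of libraries with the same number correlated at 0.127 to 0.591 (median 0.401, 9 pairs). Those with different numbers correlated at -0.437 to 0.157 (median -0.2395, 18 pairs), so the numbers were taken to mark shared conditions. The ranges overlapped, and vector replicate 2 paired weakly, at 0.127 with S136X replicate 2 and 0.158 with R58Q replicate 2. Over the glycolysis and hypoxia response genes these were -0.199 and 0.0429. Values with the replicate block rest on a pairing that is weak for that library. The tests given first are without a replicate term, and the value with the replicate block is given beside each result that it changes. No replicate pair was a repeat of 1 library (chi-square over degrees of freedom 7.21 to 23). Columns without a sample numbered 0, as did rows without a gene.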

Additional observations from a re-analysis of the deposited data

Results flagged for a closer look

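ALDOA is singled out because the effect of R58Q differed from that of S136X in a direct test of the 2 mutants, with a log2 difference of 0.58 (SE 0.0645, edgeR adjusted p = 0.0138) and every R58Q library above every S136X library. The direction and a log2 difference of 0.54 to 0.63 held in all alternatives run, and the adjusted p rose above 0.05 without S136X replicate 2 (0.0726), S136X replicate 3 (0.126) or R58Q replicate 3 (0.0847). Date of the column name and R58Q cannot be told apart, and 42.3% of the ALDOA exon bases overlap AC093512.2 on the same strand. The part of these in the difference was not tested.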

How the results depend on the processing

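Of 1386 values of single genes under the alternatives, 1288 kept their call, 62 gained one in the same direction, 36 lost one and 0 reversed. Genes higher and lower with S136X were 8 and 2 with DESeq2, 13 and 4 with the replicate block and 1 and 0 at 1.5-fold, and 2 were lower with no filter. With R58Q they were 11 and 2 with DESeq2 and with no filter, 14 and 3 with the block and 2 and 0 at 1.5-fold, and 2 were lower under upper-quartile scaling, total counts only and the fit of all 9 libraries. DESeq2 also called more of all genes, 1231 and 834 with S136X and 2073 and 1398 with R58Q (937 and 637, and 1891 and 1352, by edgeR). Between the mutants 2 were higher with DESeq2, 4 higher and 3 lower with the block and 0 higher at 1.5-fold. Leaving out 1 library gave 2 to 6 higher and 0 to 2 lower with S136X, 3 to 7 and 1 to 3 with R58Q, and 0 to 1 and 0 to 0 between the mutants. Over all genes the block gave 2008 higher and 1832 lower with S136X (937 and 637 without), 2621 lower with R58Q (1352 without), and 1191 and 1020 between the mutants (53 and 28 without), where DESeq2 gave 214 and 104, no filter 193 and 83 and the fit of all libraries 137 and 59. With no filter 1050 genes were lower with S136X. Without 1 library these counts were as low as 329 and 156 with S136X, 863 and 459 with R58Q and 1 and 4 between the mutants. In CPM not divided by length, the SLC16A1 share changed by 2.9 and 2.72 percentage points with S136X and R58Q (1.79 and 1.68 per kb) and the PDK3 share by -5.48 and -6.65 (-3.81 and -4.67). The cause of these shifts was not tested. With 3 libraries a group, changes as small as those of GAPDH or HIF1A were not detectable.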
